A study of Mus musculus with 15 samples.

Results

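The Toll-like receptor (TLR) genes *Tlr1* to *Tlr9* and *Tlr13* were followed in bone marrow-derived macrophages (BMDMs) of the mouse that were treated with IL-4 or IL-13, each with or without IL-6. They were taken by gene symbol from the raw count matrix, which holds 53465 genes, and all 10 were found. Of the 13938 genes that passed a filter on low counts, 9 were TLR genes, and *Tlr5* was the member that did not pass. The groups were control, IL-4 (10 ng/ml), IL-4/IL-6 (the same IL-4 dose plus 40 ng/ml of IL-6), IL-13 (40 ng/ml) and IL-13/IL-6 (that IL-13 dose plus 40 ng/ml of IL-6), with 3 libraries each and treatment for 24 h. Cells of every group, control included, had been grown for 7 days in medium with 10% FBS and M-CSF (20 ng/ml), the growth factor that drives bone marrow cells toward macrophages. By the study's methods, the mice that gave bone marrow were between 8 and 12 weeks old. The labels of these libraries give no genotype or age, and the series has no group with IL-6 alone. The IL-6 question could therefore be asked only on top of IL-4 or IL-13.

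TLRs are membrane proteins that bind conserved microbial molecules and start inflammatory gene expression, and macrophages are among the cells that use them most widely. TLR1, TLR2, TLR4, TLR5 and TLR6 act at the cell surface on bacterial lipids, lipopolysaccharide and flagellin, whereas TLR3, TLR7, TLR8, TLR9 and TLR13 act in endosomes on nucleic acids. IL-4 and IL-13 signal mainly through STAT6 and IL-6 mainly through STAT3.

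In the GRCm38 annotation, each of the 10 genes is protein coding. *Tlr1* (chr5:64924679-64933563, minus strand) and *Tlr6* (chr5:64952031-64960097, minus strand) are adjacent coding genes, as are *Tlr8* (chrX:167242696-167264329, minus strand) and *Tlr7* (chrX:167304929-167330558, minus strand). *Tlr2* lies at chr3:83836272-83841767 (minus strand), *Tlr3* at chr8:45395665-45411080 (minus strand), *Tlr4* at chr4:66827584-66930284 (plus strand), *Tlr5* at chr1:182954788-182976044 (plus strand), *Tlr9* at chr9:106222598-106226883 (plus strand) and *Tlr13* at chrX:106143204-106160493 (plus strand). *Tlr3* shares 381 exonic bases with the antisense gene *Gm45542*, and because strand-specific counting is not stated, reads of the pair cannot be told apart there. *Tlr1* and *Tlr6* are close relatives. Of the 50-base words of their coding sequences, 454 are identical, which is 19.4% of those of *Tlr1* and 19.2% of those of *Tlr6*, and none of the words is shared by any other pair of the 10 genes. Reads from these stretches could be split between *Tlr1* and *Tlr6* or dropped, so that their levels are less certain than those of the other members. The longest identical stretch, 229 bases of coding sequence at chr5:64925537-64925765 in *Tlr1* and chr5:64953828-64954056 in *Tlr6*, is printed to show what a short read cannot tell apart.

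Tlr1 and Tlr6, shared coding stretch: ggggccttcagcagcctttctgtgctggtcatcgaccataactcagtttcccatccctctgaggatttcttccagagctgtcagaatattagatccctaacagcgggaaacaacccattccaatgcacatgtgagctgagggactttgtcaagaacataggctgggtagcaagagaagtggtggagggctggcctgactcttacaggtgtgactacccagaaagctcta

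Promoter windows of 250 bases before the annotated start were found for 8 of the 10 genes in the RefSeq table (GRCm38.p6), and *Tlr4* and *Tlr7* were not searched. The windows of *Tlr2*, *Tlr9* and *Tlr13*, the tested members with a log2 fold change below -2 in at least 1 comparison described here, and of *Tlr8* are printed, with capitals on every match to the motifs searched on both strands.

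Tlr2, chr3:83841609-83841858, minus strand: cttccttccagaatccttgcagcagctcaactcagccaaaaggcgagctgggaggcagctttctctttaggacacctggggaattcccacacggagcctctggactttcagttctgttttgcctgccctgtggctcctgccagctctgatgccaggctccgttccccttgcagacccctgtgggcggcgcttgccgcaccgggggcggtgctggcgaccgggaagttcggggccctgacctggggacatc
Tlr9, chr9:106222348-106222597, plus strand: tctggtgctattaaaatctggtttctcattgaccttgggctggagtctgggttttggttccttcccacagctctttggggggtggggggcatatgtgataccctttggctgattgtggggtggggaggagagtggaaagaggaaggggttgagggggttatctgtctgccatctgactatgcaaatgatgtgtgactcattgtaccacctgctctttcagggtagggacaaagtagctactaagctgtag
Tlr13, chrX:106143025-106143274, plus strand: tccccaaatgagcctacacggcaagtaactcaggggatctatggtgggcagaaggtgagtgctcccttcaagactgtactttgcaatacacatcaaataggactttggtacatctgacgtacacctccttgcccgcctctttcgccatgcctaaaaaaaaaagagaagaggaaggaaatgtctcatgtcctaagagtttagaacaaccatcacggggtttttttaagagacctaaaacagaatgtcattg
Tlr8, chrX:167264330-167264579, minus strand: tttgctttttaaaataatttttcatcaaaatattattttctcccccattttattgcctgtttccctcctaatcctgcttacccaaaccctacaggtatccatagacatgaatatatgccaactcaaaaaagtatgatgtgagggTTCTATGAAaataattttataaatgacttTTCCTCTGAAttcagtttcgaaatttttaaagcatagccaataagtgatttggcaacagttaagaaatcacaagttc

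The STAT6-type motif, TTC and GAA with 4 bases between, was found at bases -77 to -68 of the *Tlr8* window and in none of the other 7 members with a window, against 5.85% of the 32851 promoters in the table. The STAT-type motif TTC and GAA with 3 bases between, present in 7.02% of promoters, was found in *Tlr8* at -106 to -98 and in the window of the downstream start of *Tlr1*. The IRF-type motif, GAAA repeated after 2 bases (2.98% of promoters), was found in *Tlr6*, where 2 matches overlapped, the NF-kB-type motif, GGG and TTTCC with 2 bases between (1.41%), in *Tlr3* and the PU.1-type motif GAGGAAGT (2.44%) in *Tlr1*. The pair of matches in *Tlr8* did not overlap each other. These are matches of letters in a short window and not measured binding sites. Only the spellings given were searched. Close variants, such as gggaattccc in the *Tlr2* window beside the NF-kB-type motif, were therefore not counted or capitalized.

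The libraries held 17001352 to 18918686 counts each. IL-4/IL-6 replicate 2 and IL-13 replicate 1 stood apart from the other libraries of their groups over all genes (mean chi-square per gene 26.3 and 46.6 against 7.55 for the other pair, and 22.3 and 17.1 against 3.93). Without IL-4/IL-6 replicate 2, calls were gained for *Tlr1* (IL-4/IL-6 against control and against IL-4) and *Tlr9* (difference of the IL-6 effects), and without IL-13 replicate 1 the *Tlr7* call for IL-6 on IL-13 was lost. No other call of a TLR gene changed without these libraries. *Adgre1*, which encodes the macrophage marker F4/80, had a mean of 844 to 1454 CPM (counts scaled to a common library size with TMM factors) in the 5 groups, and *Csf1r*, the M-CSF receptor gene, 1581 to 2195. The summed level of 8 macrophage markers was 18891 to 21063 CPM in control, 14589 to 15062 CPM in IL-4, 11937 to 13638 CPM in IL-4/IL-6, 17097 to 19775 CPM in IL-13 and 14322 to 15233 CPM in IL-13/IL-6. Most of this was *Lyz2*, which fell over control in all 4 comparisons, as did *Csf1r* and *Mertk* (mean 142.5 CPM in control and 8.27 to 17.9 CPM in the treated groups). The cytokines left their usual marks, since mean *Mrc1*, the mannose receptor gene, was 196 CPM in control and 996, 8717, 496 and 5715 CPM in IL-4, IL-4/IL-6, IL-13 and IL-13/IL-6, and mean *Socs3*, an IL-6 target, was 1.27 to 8.73 CPM without IL-6 and 107 and 129 CPM with it. The control cultures also carried transcripts of other cell types that were at lower levels in the cytokine-treated libraries. The summed level of 8 granulocyte markers was 339 to 406 CPM in control and at most 2.04 CPM in the other 4 groups, where *Ly6g* and *Retnlg* were at 0. For 5 monocyte markers it was 268 to 281 CPM in control and 4.77 to 61.1 CPM in the others, for 6 B cell markers 10.6 to 11.3 and at most 1.55 CPM, and for 4 stromal markers 15.1 to 19.8 and at most 0.161 CPM. For 7 markers of conventional dendritic cells it was 25.8 to 28.6 CPM in control, 0.451 to 1.34 CPM in IL-4 and IL-13, 10.9 to 13.5 CPM in IL-4/IL-6 and 2.55 to 2.95 CPM in IL-13/IL-6. *Cd209a* made up most of the level with IL-6, with means of 11.3 and 2.14 CPM. For 5 plasmacytoid dendritic cell markers the sum was 10.8 to 12.1 CPM in control and 2.87 to 7.54 CPM in the others. In that list *Siglech* had a mean of 5.48 CPM in control and no count in the other 12 libraries, while *Cox6a2* had 1.72 CPM in control and 2.92 to 5.94 CPM in the treated groups. For the 5 T and NK cell markers the sum was at most 1.07 CPM in any library, and for 4 mast cell and basophil markers it was 6.43 to 7.01 CPM in control and at most 2.14 CPM elsewhere. In bulk RNA, fewer cells of a type and less RNA per cell cannot be told apart.

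**Figure D1:**
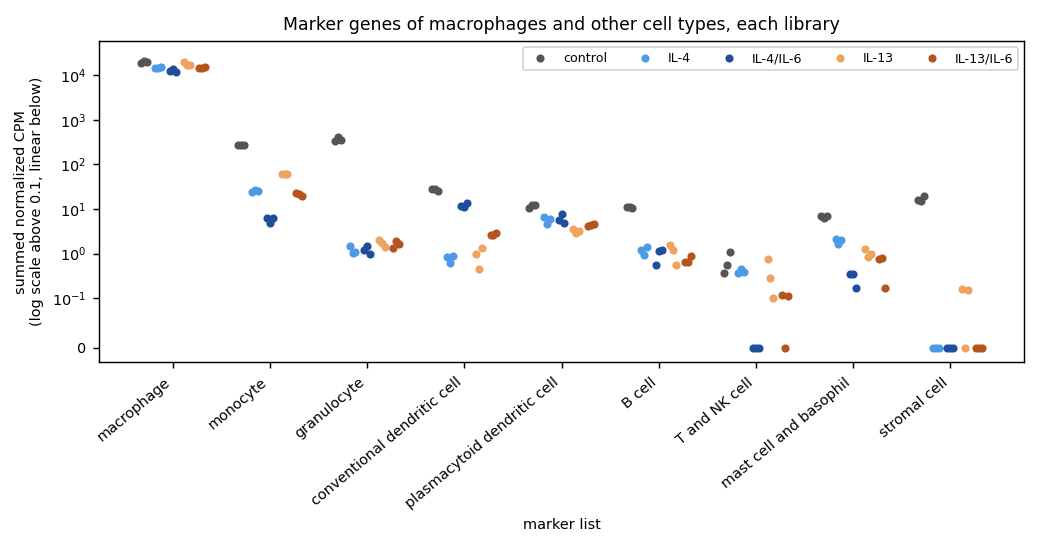
Summed normalized CPM of each marker list (y axis, logarithmic above 0.1 and linear below) for every library, colored by group. The 3 control libraries stand above all others for granulocyte markers (339 to 406 CPM against at most 2.04 CPM) and for stromal and B cell markers, while macrophage markers sum to 11937 CPM or more in all 15 libraries and are highest in 2 of the control libraries.

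Levels of different genes were compared on the FPKM scale, which divides by gene length. FPKM are scaled by library totals, without the TMM factors of 0.898 to 1.05 that enter the CPM, which touches sums set side by side between groups but no share or ratio within a library. In control BMDMs, *Tlr13*, a receptor for bacterial ribosomal RNA, was the most abundant TLR transcript with 116.7 ± 2.46 FPKM (SD, n = 3). It was followed by the RNA sensor genes *Tlr8* (64.1 ± 2.08 FPKM) and *Tlr7* (55.5 ± 1.14 FPKM) and by the lipoprotein receptor gene *Tlr2* (49.6 ± 2.65 FPKM). *Tlr4* (23.2 ± 0.496 FPKM) and *Tlr1* (20.4 ± 0.720 FPKM) came next. *Tlr9* had 12.4 ± 0.891 FPKM, *Tlr6* 9.46 ± 0.136 FPKM, *Tlr3* 2.61 ± 0.0481 FPKM and *Tlr5* 0.138 ± 0.0716 FPKM. The libraries of neighbouring genes in this order did not overlap.

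The summed FPKM of the 10 genes was 354.1 ± 4.11 in control, 166.3 ± 4.64 in IL-4, 140.7 ± 25.7 in IL-4/IL-6, 211.7 ± 27.3 in IL-13 and 225.2 ± 10.0 in IL-13/IL-6. All 12 cytokine-treated libraries lay below all 3 control libraries. The surface receptors made up 29.0 ± 1.00% of this sum in control. With IL-4 their share was 28.3 ± 0.303%, and with IL-13 23.5 ± 0.587%. With IL-6 added it was 43.4 ± 1.79% on IL-4 and 31.8 ± 1.16% on IL-13. *Tlr13* was the top gene in 4 groups, with 55.5 ± 0.990 FPKM in IL-4, 90.0 ± 8.30 FPKM in IL-13 and 72.2 ± 1.96 FPKM in IL-13/IL-6. In IL-4/IL-6 it came after *Tlr4*, *Tlr8*, *Tlr7* and *Tlr1* in mean level, with 18.1 ± 0.830 FPKM, and *Tlr4* had the highest mean, 32.8 ± 5.42 FPKM. The ranges of *Tlr4*, *Tlr8* and *Tlr7* overlapped in that group. TLR2 works as a dimer with TLR1 or TLR6, and the ratio of *Tlr2* to *Tlr1* FPKM was 2.43 ± 0.0584 in control, 0.639 ± 0.128 in IL-13, 0.175 ± 0.0209 in IL-4, 0.159 ± 0.0244 in IL-13/IL-6 and 0.0607 ± 0.00656 in IL-4/IL-6.

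**Figure D2:**
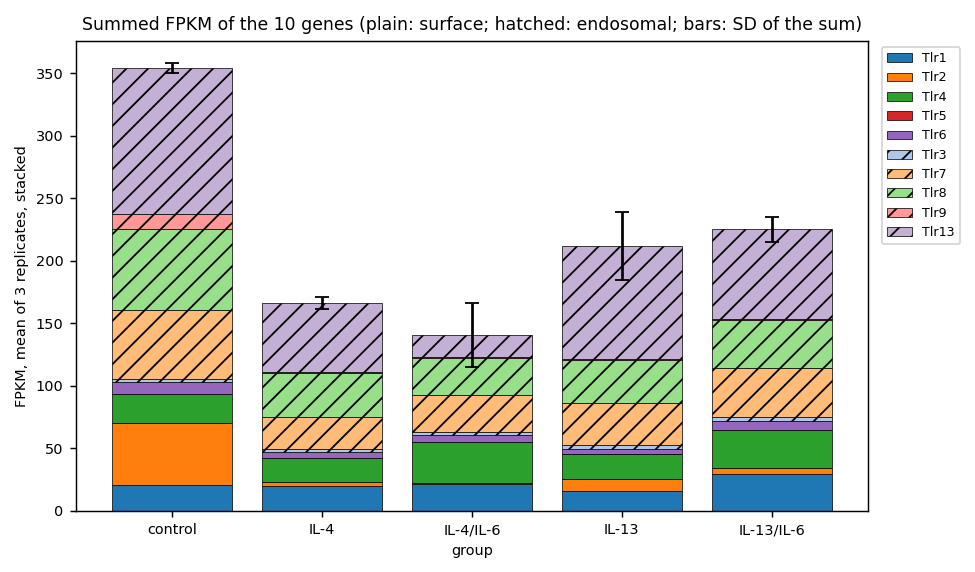
Mean FPKM of the 10 TLR genes stacked for each group (surface receptors plain, endosomal receptors hatched), with bars for the SD of the summed FPKM over 3 libraries. The sum is 354.1 FPKM in control and lowest in IL-4/IL-6 (140.7 FPKM), where the *Tlr13* part is 18.1 FPKM.

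IL-4 and IL-13 alone were compared with control to ask how each cytokine moves the TLR genes. With IL-4, 6 of the 9 TLR genes tested fell and none rose at an adjusted p under 0.05 (edgeR quasi-likelihood test), where 35.9% of all genes tested fell and 32.1% rose. With IL-13, 7 of 9 fell and none rose, against 31.1% of all genes that fell and 29% that rose. At an unadjusted p under 0.05 the count that rose was also 0 in both comparisons, and DESeq2 gave 0 as well. The median log2 fold change of the 9 genes was -0.98 with IL-4 and -0.70 with IL-13, and that of all genes tested -0.05 and -0.02. The 4 comparisons with control share the same control libraries, which carry the granulocyte, monocyte, B cell, dendritic cell and stromal transcripts given above, and the part of those cells in these results was not tested.

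Among the surface receptors, *Tlr2* had 133.9, 150.6 and 145.5 CPM in the control libraries, 8.94, 11.0 and 10.6 CPM in IL-4 and 32.3, 26.4 and 27.3 CPM in IL-13. Every treated library was far below every control library. The log2 fold change was -3.82 with IL-4 (SE 0.11, adjusted p = 3.20e-14 by edgeR) and -2.32 with IL-13 (SE 0.10, adjusted p = 6.04e-12). *Tlr6* had 34.1, 33.6 and 33.6 CPM in control, 17.4, 15.7 and 18.3 CPM in IL-4 and 15.4, 18.2 and 16.4 CPM in IL-13. It fell by 0.98 and 1.02 on the log2 scale (SE 0.09 each, adjusted p = 8.57e-08 and 7.14e-08 by edgeR). *Tlr1* had 62.8, 68.4 and 65.1 CPM in control and 65.7, 65.2 and 62.9 CPM in IL-4, which overlap, and its log2 fold change was -0.02 (95% interval -0.19 to 0.15, adjusted p = 0.849 by edgeR). In IL-13 it had 45.8, 54.7 and 50.7 CPM, below every control library, with a log2 fold change of -0.38 (SE 0.08, adjusted p = 0.000880 by edgeR).

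*Tlr4*, which encodes the lipopolysaccharide receptor, had 125.3, 122.0 and 122.8 CPM in control, 111.3, 106.8 and 103.7 CPM in IL-4 and 83.8, 126.2 and 112.1 CPM in IL-13. The IL-4 libraries lay just below control and the IL-13 libraries spread across it. The log2 fold change was -0.20 in both comparisons (95% intervals -0.46 to 0.06 each, adjusted p = 0.155 and 0.169 by edgeR). In a fit of the control and IL-4 libraries alone, the *Tlr4* value with IL-4 was -0.16 with an adjusted p of 0.00147, and limma voom gave an adjusted p of 0.0410. Without IL-13 replicate 2, the *Tlr4* value with IL-13 was -0.32 with an adjusted p of 0.0392, and over all libraries left out in turn it ranged from -0.318 to -0.016.

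Among the endosomal receptors, *Tlr9*, which senses unmethylated CpG DNA, had 40.9, 38.7 and 44.0 CPM in control, 2.09, 1.55 and 1.69 CPM in IL-4 and 3.53, 5.57 and 3.86 CPM in IL-13. Its log2 fold changes, -4.53 (SE 0.20, adjusted p = 2.82e-12 by edgeR) and -3.25 (SE 0.17, adjusted p = 6.11e-11), were the largest of the 9 genes in both comparisons. *Tlr7* had 220.7, 215.8 and 214.1 CPM in control, 104.5, 97.6 and 102.4 CPM in IL-4 and 118.0, 146.2 and 135.7 CPM in IL-13. The IL-4 libraries of *Tlr7* were at nearly equal levels and the IL-13 libraries more spread, all below control. It fell by 1.10 and 0.70 on the log2 scale (SE 0.09 each, adjusted p = 1.32e-08 and 3.64e-06 by edgeR).

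*Tlr8* had 223.3, 214.2 and 223.3 CPM in control, 129.5, 134.2 and 115.3 CPM in IL-4 and 85.2, 149.7 and 127.7 CPM in IL-13. IL-13 replicate 1 was the lowest of the IL-13 libraries for *Tlr8*, and likewise for 7 of the 9 tested members in all. *Tlr8* fell by 0.80 and 0.87 on the log2 scale (SE 0.18 each, adjusted p = 0.000987 and 0.000630 by edgeR). *Tlr13* had 462.2, 450.6 and 457.3 CPM in control, 228.8, 222.0 and 222.2 CPM in IL-4 and 333.5, 391.5 and 351.3 CPM in IL-13. The 3 groups did not overlap, and the log2 fold changes were -1.03 (SE 0.06, adjusted p = 1.25e-10 by edgeR) and -0.35 (SE 0.06, adjusted p = 7.38e-05). *Tlr3*, the receptor for long RNA duplexes, had 12.9 to 13.2 CPM in control, 11.0 to 14.4 CPM in IL-4 and 12.9 to 14.5 CPM in IL-13. Its libraries overlapped, with log2 fold changes of -0.08 (95% interval -0.32 to 0.17) and 0.06 (-0.18 to 0.30).

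**Figure D3:**
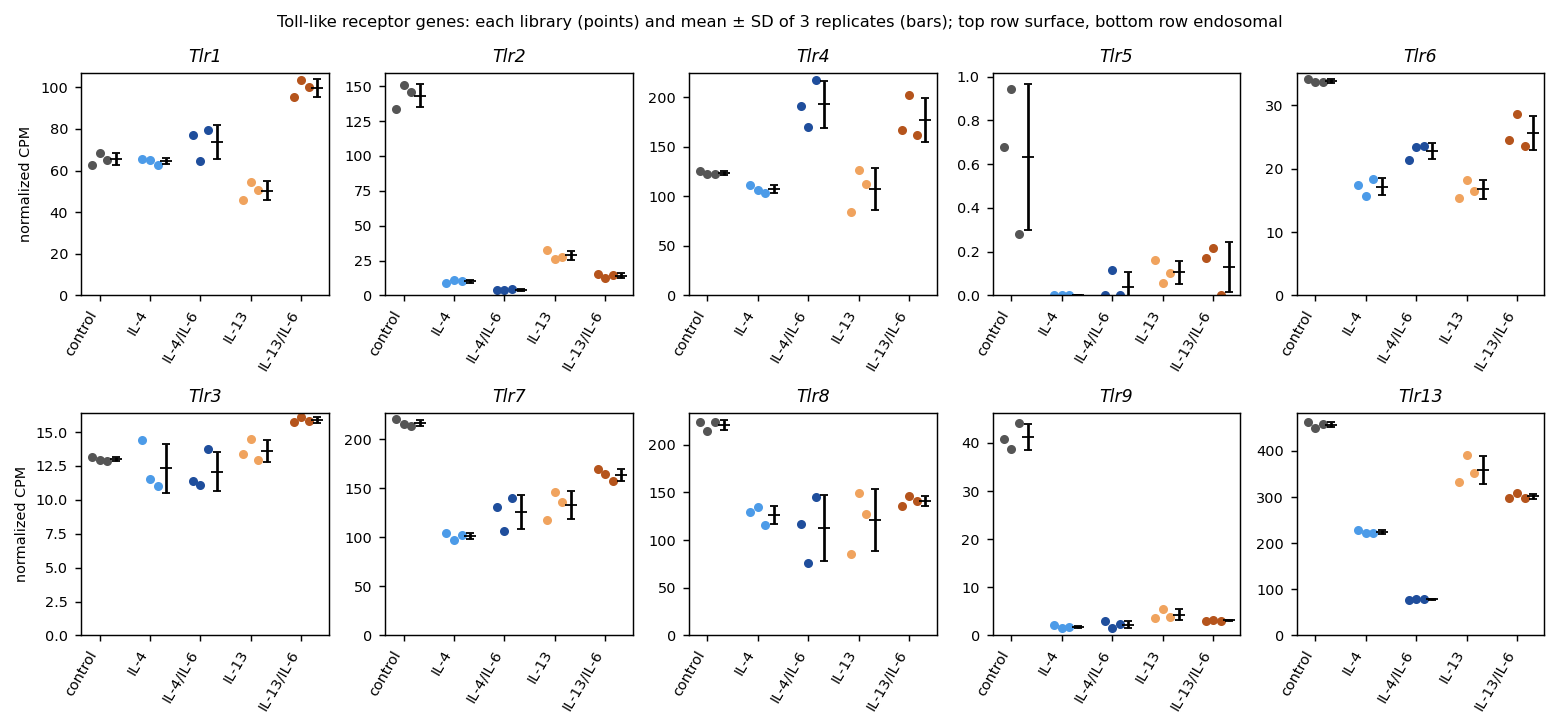
Normalized CPM (y axis, from 0) of each TLR gene in each library, with the mean and SD of the 3 replicates beside the points. *Tlr2* and *Tlr9* stand far above all treated groups in control, *Tlr4* is highest in both groups with IL-6, and *Tlr13* in IL-4/IL-6 lies at 77.7 to 78.5 CPM.

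**Figure D4:**
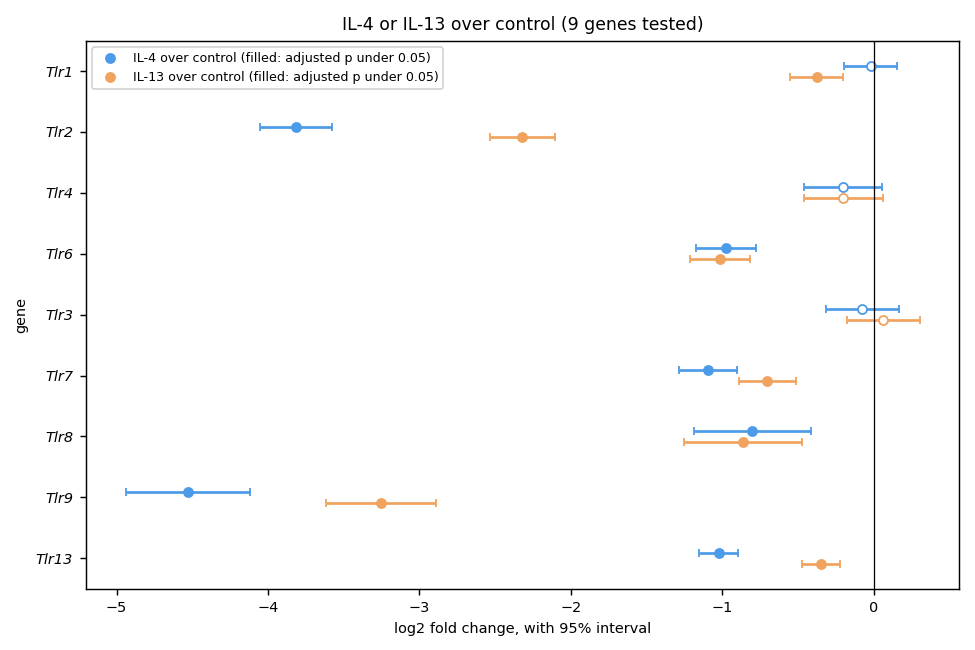
Log2 fold changes of the 9 tested TLR genes in IL-4 and IL-13 over control with 95% intervals (x axis), filled where the adjusted p was under 0.05. *Tlr9* and *Tlr2* lie farthest to the left, and the intervals of *Tlr3* and *Tlr4* include 0.

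IL-13 was also compared with IL-4 directly, although the doses differ (40 and 10 ng/ml). Of the 9 TLR genes, 4 were higher and 1 lower in IL-13, where 7.61% of all genes tested were higher and 5.16% lower. These shares rest on 1060 and 719 genes, which ranged from 644 and 444 without IL-13 replicate 3 to 1623 and 1292 without IL-13 replicate 1 when each library was left out in turn. *Tlr2* was higher by 1.49 on the log2 scale (SE 0.11, adjusted p = 8.15e-08 by edgeR), *Tlr9* by 1.27 (SE 0.22, adjusted p = 0.000751) and *Tlr13* by 0.68 (SE 0.06, adjusted p = 4.93e-07). The libraries of these 3 genes did not overlap between the cytokines, nor did those of *Tlr7* and *Tlr1*. *Tlr7* was higher by 0.39 (SE 0.09, adjusted p = 0.00738 by edgeR), a call that was lost without IL-4 replicate 2 (log2 fold change 0.36, adjusted p = 0.0515) and without IL-13 replicate 2 (0.33, adjusted p = 0.0529). *Tlr1* was lower by a log2 fold change of -0.36 (SE 0.08, adjusted p = 0.00793 by edgeR). For *Tlr3*, *Tlr4*, *Tlr6* and *Tlr8* the 95% intervals were -0.10 to 0.38, -0.26 to 0.26, -0.24 to 0.17 and -0.45 to 0.32. Among IL-4 and IL-13 libraries, granulocyte, stromal and B cell markers were near 0, while the monocyte list was at 24.6 to 26.4 CPM in IL-4 and 59.7 to 61.1 CPM in IL-13. Most of it was *Cx3cr1* and *Ccr2*, with *Ly6c2* at no more than 5 counts in any of these 6 libraries, and its part in the difference was not tested.

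Co-addition of IL-6 was compared with IL-4 or IL-13 alone, the comparison that the series' title is about. With IL-4, 3 of the 9 TLR genes rose and 2 fell, where 20.7% of all genes tested rose and 18.7% fell. With IL-13, 4 rose and 2 fell, against 12.1% and 13.5% of all genes. *Tlr4* and *Tlr6* rose with IL-6 in both settings and *Tlr2* and *Tlr13* fell in both. The median log2 fold change of the 9 genes was 0.19 on IL-4 and 0.23 on IL-13, beside 0.04 and 0.01 for all genes. When raw library totals were used in place of TMM factors, the share of rises among all called genes went from 52.6% to 38.0% on IL-4 and from 47.3% to 35.3% on IL-13. With upper-quartile factors it was 39.0% on IL-4. The control libraries are on neither side of these comparisons, and granulocyte sums were 0.979 to 2.04 CPM with *Siglech* at 0 on both sides. The dendritic cell list was higher with IL-6, mostly through *Cd209a* as given above, with *Flt3* at 0 in IL-4 and IL-4/IL-6. The monocyte list, again mostly *Ccr2* and *Cx3cr1*, was at 4.77 to 6.35 CPM in IL-4/IL-6 and 19.4 to 23.1 CPM in IL-13/IL-6, below the groups without IL-6, and the part of both lists in the results was not tested.

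At the surface, *Tlr4* rose from 103.7 to 111.3 CPM in IL-4 to 190.5, 169.8 and 217.3 CPM in IL-4/IL-6, and from 83.8 to 126.2 CPM in IL-13 to 166.5, 202.5 and 161.6 CPM in IL-13/IL-6. The groups did not overlap in either setting. The log2 fold changes were 0.84 (SE 0.12, adjusted p = 2.52e-05 by edgeR) and 0.72 (SE 0.12, adjusted p = 0.000224). *Tlr6* rose to 21.3, 23.4 and 23.5 CPM in IL-4/IL-6 and to 24.5, 28.6 and 23.6 CPM in IL-13/IL-6, by log2 fold changes of 0.41 (SE 0.10, adjusted p = 0.00245 by edgeR) and 0.62 (SE 0.10, adjusted p = 8.65e-05). All of these *Tlr6* values stayed below the control libraries.

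*Tlr2*, already low after IL-4 or IL-13, fell again with IL-6, to 3.69, 3.77 and 4.61 CPM in IL-4/IL-6 and to 15.7, 12.5 and 14.5 CPM in IL-13/IL-6. The log2 fold changes were -1.34 (SE 0.14, adjusted p = 4.12e-07 by edgeR) and -1.01 (SE 0.11, adjusted p = 1.27e-06). *Tlr2* thus moved opposite to its partner gene *Tlr6* in both settings, with no overlap between libraries for either gene. *Tlr1*, the other partner, had 77.0, 64.6 and 79.7 CPM in IL-4/IL-6, with IL-4/IL-6 replicate 2 inside the range of IL-4 alone. Its log2 fold change there was 0.19 (95% interval 0.02 to 0.37, adjusted p = 0.0755 by edgeR), and without that replicate it was 0.26 with an adjusted p of 0.00698 (range with each library left out 0.116 to 0.264). In IL-13/IL-6 it had 95.4, 103.7 and 100.1 CPM, above every other library of the series, with a log2 fold change of 0.98 (SE 0.08, adjusted p = 6.92e-08 by edgeR).

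Among the endosomal receptors, *Tlr13* fell to 77.7, 78.1 and 78.5 CPM in IL-4/IL-6 and to 298.9, 308.0 and 298.6 CPM in IL-13/IL-6. The IL-4/IL-6 libraries were the lowest of all 15 and nearly equal, although this group had the largest spread over all genes (biological coefficient of variation 14.8%, against 4.48% to 10.9% in the others). The log2 fold changes were -1.52 (SE 0.06, adjusted p = 2.66e-12 by edgeR) and -0.25 (SE 0.06, adjusted p = 0.00414). *Tlr7* had 131.3, 106.2 and 140.0 CPM in IL-4/IL-6 and 169.5, 164.6 and 157.8 CPM in IL-13/IL-6, and rose by 0.31 and 0.30 on the log2 scale (SE 0.09 each, adjusted p = 0.0114 and 0.0204 by edgeR). These *Tlr7* calls were lost with raw library totals (adjusted p = 0.123 on IL-4 and 0.132 on IL-13), and on IL-4 with upper-quartile factors (0.0602) and in a fit of these groups alone (0.0897). The call on IL-4 was also lost without IL-4 replicate 2, IL-4/IL-6 replicate 1 or IL-4/IL-6 replicate 3 (adjusted p 0.0758 to 0.0796), and that on IL-13 without IL-13 replicate 1 or 3 or IL-13/IL-6 replicate 1 or 2 (0.0540 to 0.116). With each library left out, the *Tlr7* log2 fold change was 0.210 to 0.404 on IL-4 and 0.210 to 0.361 on IL-13.

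*Tlr8* had 116.3, 76.3 and 144.8 CPM in IL-4/IL-6, the widest spread of any member with over 100 CPM, and 136.0, 146.1 and 140.6 CPM in IL-13/IL-6. The 95% intervals of its log2 fold changes with IL-6 were -0.56 to 0.22 on IL-4 and -0.17 to 0.61 on IL-13. *Tlr9* had 3.01, 1.47 and 2.30 CPM in IL-4/IL-6 and 3.01, 3.25 and 3.06 CPM in IL-13/IL-6, with log2 fold changes of 0.35 (95% interval -0.17 to 0.87) and -0.47 (-0.90 to -0.04, adjusted p = 0.108 by edgeR). *Tlr3* had 11.1 to 13.8 CPM in IL-4/IL-6 and 15.7 to 16.1 CPM in IL-13/IL-6. Its libraries overlapped on IL-4 and lay just above on IL-13, where the log2 fold change was 0.22 (95% interval -0.01 to 0.46, adjusted p = 0.166 by edgeR).

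**Figure D5:**
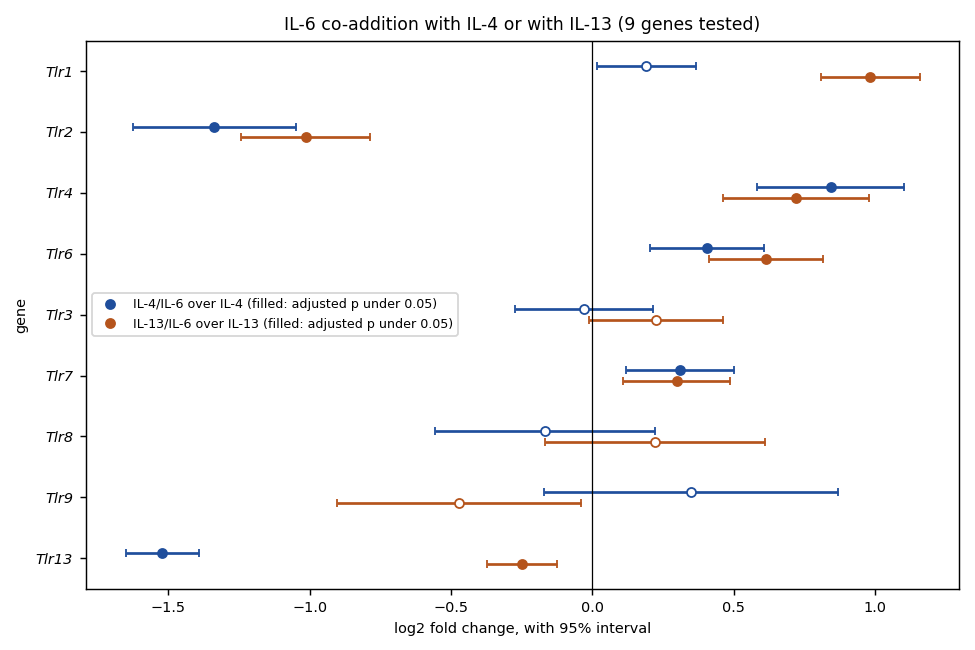
Log2 fold changes of the 9 tested TLR genes with IL-6 added on IL-4 or on IL-13, with 95% intervals (x axis), filled where the adjusted p was under 0.05. *Tlr2* falls and *Tlr4* and *Tlr6* rise in both, while the intervals of *Tlr1* and *Tlr13* lie apart between the settings.

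The difference between the IL-6 effects, on IL-13 minus on IL-4, was tested as an interaction. It passed for 2 of the 9 TLR genes, both toward higher values on IL-13, where 4.42% of all genes passed in that direction and 3.22% in the other. Behind these shares are 616 and 449 genes, which ranged from 489 to 798 and from 293 to 607 with each library left out in turn. At an unadjusted p under 0.05, 1 TLR gene, *Tlr9*, was lower, and DESeq2 called 0 lower. For *Tlr13* the difference was 1.27 on the log2 scale (SE 0.08, adjusted p = 1.43e-07 by edgeR), from effects of -1.52 on IL-4 and -0.25 on IL-13. For *Tlr1* it was 0.79 (SE 0.12, adjusted p = 0.000259 by edgeR), from effects of 0.19 and 0.98. For *Tlr2*, *Tlr4*, *Tlr6* and *Tlr7* the 95% intervals of the difference were -0.05 to 0.69, -0.49 to 0.24, -0.08 to 0.49 and -0.28 to 0.26. For *Tlr3* the interval was -0.08 to 0.59 and for *Tlr8* -0.16 to 0.94. *Tlr9* had a difference of -0.82 (95% interval -1.50 to -0.14, adjusted p = 0.158 by edgeR), which without IL-4/IL-6 replicate 2 was -1.04 with an adjusted p of 0.0254 (range with each library left out -1.044 to -0.547).

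Against control, the co-treated cells had 1 TLR gene higher and 6 lower of 9 in IL-4/IL-6, where 35.4% of all genes tested were higher and 37.5% lower. In IL-13/IL-6 3 were higher and 6 lower, against 31.9% and 32.1% of all genes. The *Tlr4* level exceeded control in both, by log2 fold changes of 0.64 (SE 0.12, adjusted p = 0.000157 by edgeR) and 0.52 (SE 0.12, adjusted p = 0.00129). *Tlr1* exceeded control in IL-13/IL-6 by 0.61 (SE 0.08, adjusted p = 5.25e-06 by edgeR), and in IL-4/IL-6 its value was 0.17 (adjusted p = 0.0689), or 0.29 with an adjusted p of 0.00184 without IL-4/IL-6 replicate 2 (range with each library left out 0.109 to 0.287). *Tlr3* was higher in IL-13/IL-6 by 0.29 (adjusted p = 0.0330 by edgeR), a call lost when any control replicate or IL-13/IL-6 replicate 2 was left out (adjusted p 0.0635 to 0.0782, with a fold change that stayed at 0.284 to 0.325 over all libraries left out) and with library totals (0.173) or upper-quartile factors (0.0743). The lower genes were *Tlr2*, *Tlr6*, *Tlr7*, *Tlr8*, *Tlr9* and *Tlr13* in both groups. *Tlr2* stood at -5.15 (SE 0.13) in IL-4/IL-6 and -3.34 (SE 0.11) in IL-13/IL-6, *Tlr9* at -4.18 (SE 0.19) and -3.73 (SE 0.18), and *Tlr13* at -2.55 (SE 0.06) and -0.60 (SE 0.06). *Tlr6*, *Tlr7* and *Tlr8* ranged from -0.97 to -0.40. The other-cell transcripts of the control libraries stand beside these values too, and their part was not tested.

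*Tlr5*, the flagellin receptor gene, had 13, 17 and 5 counts in the control libraries and 0 in each IL-4 library. With IL-4 set to a floor of 3 counts over the group, control was 11.7-fold higher. That ratio leaves out counting error in control and is not a lower limit. The interval for counting error began at 0.443 CPM in control and ended at 0.067 CPM in IL-4. *Tlr5* had 2 counts summed over IL-4/IL-6, 6 over IL-13 and 7 over IL-13/IL-6. Control was thus 5.92-fold and 4.88-fold above the last 2 groups, and none of these differences was tested. The remaining mouse TLR genes, *Tlr11* and *Tlr12*, which sense a parasite profilin, were also too low to test. *Tlr12* had 20, 9 and 19 counts in control and 0 in all 12 cytokine-treated libraries. By the same floor, control was 15.1-fold to 16.2-fold above the treated groups, again without counting error in control. The interval for counting error began at 0.643 CPM in control and ended at 0.0661 to 0.071 CPM in the treated groups. *Tlr11* had 13 counts over control, 11 over IL-4 and 2 to 7 over each of the other groups. The *Tlr5* and *Tlr12* counts fell in the same libraries in which granulocyte and stromal markers were near 0 and the dendritic cell list was at 0.451 to 13.5 CPM, and the part of those cells was not tested.

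The proteins that help TLRs bind ligands at the surface are encoded by 6 genes of a list made for this purpose. For this and the other pathway lists, the shares of all genes tested were 32.1% that rose and 35.9% that fell with IL-4, and 29% and 31.1% with IL-13. For IL-6 they were 20.7% and 18.7% on IL-4, and 12.1% and 13.5% on IL-13. With IL-4 over control, 1 rose and 3 fell, and with IL-13 2 rose and 2 fell. With IL-6 co-addition, 1 rose and 3 fell on IL-4, and 1 rose and 2 fell on IL-13. The counts over control lie near the shares of all genes, and those that fell with IL-6 lie above them. *Cd14*, the co-receptor gene that passes lipopolysaccharide to TLR4, had 291.7 ± 5.30 CPM in control, 101.4 ± 2.74 CPM in IL-4 and 46.5 ± 4.63 CPM in IL-4/IL-6, but 259.4 ± 36.1 CPM in IL-13 and 227.7 ± 8.23 CPM in IL-13/IL-6 (SD, n = 3). The IL-6 effect on *Cd14* was -1.12 on IL-4 (adjusted p = 1.79e-08 by edgeR) and -0.19 on IL-13 (adjusted p = 0.123), and the difference between them was 0.94 (adjusted p = 8.76e-05). *Cd14* thus fell on IL-4/IL-6 while *Tlr4* rose in the same libraries. *Ly86*, which encodes the MD-1 partner of the TLR4-like receptor CD180, rose with IL-6 by 0.99 on IL-4 and 0.98 on IL-13 (adjusted p = 1.42e-07 and 2.97e-07 by edgeR), from 51.0 to 101.2 and from 52.7 to 103.9 CPM. *Cd36*, a scavenger receptor gene that also serves TLR2 and TLR6, rose with IL-4 by 1.20 and fell back with IL-6 by 1.34 on the log2 scale (adjusted p = 3.62e-11 and 2.06e-11 by edgeR). *Lbp*, for the lipopolysaccharide-binding protein, was at 4.51 CPM in control and 0.181 to 0.608 CPM elsewhere. *Ly96*, which encodes the MD-2 subunit of the TLR4 complex and is named here after its values were seen, had 8.79 to 11.0 CPM in all groups and passed no test in these comparisons (adjusted p 0.106 to 0.909 by edgeR).

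Trafficking and ligand processing for the endosomal receptors were followed by 16 genes. Over control, 3 rose and 10 fell with IL-4 (35.9% of all genes fell), and 2 rose and 12 fell with IL-13 (31.1%). Their median log2 fold change was -0.35 and -0.37, beside -0.05 and -0.02 for all genes. With IL-6, 4 rose and 8 fell on IL-4 (20.7% and 18.7% of all genes), and 5 rose and 4 fell on IL-13 (12.1% and 13.5%). *Unc93b1*, the chaperone that brings nucleic acid-sensing TLRs to endosomes, had 725.8 ± 23.0 CPM in control, 624.2 ± 8.61 CPM in IL-4, 349.9 ± 11.2 CPM in IL-4/IL-6, 630.5 ± 17.1 CPM in IL-13 and 461.4 ± 11.8 CPM in IL-13/IL-6 (SD, n = 3). It fell with IL-6 by 0.84 on IL-4 and 0.45 on IL-13, and the difference of 0.38 passed its test (adjusted p = 0.00278 by edgeR). Against this, the protease genes *Ctsl* and *Lgmn*, whose products cut endosomal TLRs, rose with IL-6. *Ctsl* went from 3841 to 9651 CPM on IL-4 and from 3463 to 8014 CPM on IL-13, and *Lgmn* from 1264 to 3487 and from 1307 to 2728 CPM (adjusted p 4.92e-11 to 5.94e-09 by edgeR). *Pld3* and *Pld4*, which encode exonucleases that limit TLR9 ligands, fell with IL-4 (*Pld3*, 1199 to 439 CPM) and further with IL-6 (*Pld4*, 266.5 to 135 CPM on IL-4 and 316.5 to 163 CPM on IL-13).

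Of 8 adaptor genes, 7 were found and tested. With IL-4, 1 rose and 3 fell, and with IL-13 1 rose and 2 fell, near the shares of all genes (32.1% and 35.9%, and 29% and 31.1%). With IL-6, 2 rose and 2 fell on IL-4 (20.7% and 18.7% of all genes), and 3 rose and 1 fell on IL-13 (12.1% and 13.5%). *Myd88*, the adaptor of all mouse TLRs but TLR3, had 55.9 ± 0.777 CPM in control, 51.0 ± 2.08 CPM in IL-4 and 56.4 ± 6.22 CPM in IL-13, and 96.2 ± 4.16 CPM in IL-4/IL-6 and 127.7 ± 4.77 CPM in IL-13/IL-6. It rose with IL-6 by 0.92 and 1.18 on the log2 scale (SE 0.07 each, adjusted p = 2.33e-08 and 1.72e-09 by edgeR). *Ticam2*, which links TLR4 to the TRIF adaptor, fell with IL-6 from 12.5 to 8.62 CPM on IL-4 and from 13.0 to 9.38 CPM on IL-13 (adjusted p = 0.00297 and 0.00951 by edgeR). *Scimp*, an adaptor gene with a mean of 0.474 CPM in control, rose with IL-6 by 1.05 and 1.35 (adjusted p = 0.0105 and 0.00726 by edgeR).

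Of 16 genes for kinases and ubiquitin ligases downstream of TLRs, 13 fell with IL-4 over control and 12 with IL-13 by edgeR, where 35.9% and 31.1% of all genes fell. Their median log2 fold change was -0.43 and -0.33, beside -0.05 and -0.02 for all genes. The count that rose was 0 in both, and at an unadjusted p under 0.05 it was 0 with IL-4 and 1 with IL-13. With IL-6, 7 rose and 6 fell on IL-4 (20.7% and 18.7% of all genes), and 5 rose and 2 fell on IL-13 (12.1% and 13.5%). *Irak2*, a kinase of the MyD88 complex, had 75.6 ± 2.26 CPM in control, 28.6 ± 1.20 CPM in IL-4, 12.2 ± 1.57 CPM in IL-4/IL-6, 37.4 ± 4.24 CPM in IL-13 and 19.6 ± 1.39 CPM in IL-13/IL-6, and fell with IL-6 by 1.22 and 0.93 (adjusted p = 3.40e-08 and 9.57e-07 by edgeR). *Map3k8*, the kinase TPL2 that activates ERK after TLR signals, moved the other way, from 14.3 to 41.2 CPM on IL-4 and from 14.8 to 28.0 CPM on IL-13. Its log2 fold changes were 1.52 and 0.92 (adjusted p = 3.21e-09 and 3.36e-06 by edgeR), and the difference between them was -0.60 (adjusted p = 0.0182). *Ikbke*, an interferon-pathway kinase gene, had 255.8 CPM in control and 41.4 to 77.7 CPM in the treated groups.

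Of 14 genes for negative regulators of TLR signaling, 3 rose and 8 fell with IL-4 over control (32.1% and 35.9% of all genes), and 2 rose and 8 fell with IL-13 (29% and 31.1%). With IL-6, 6 rose and 4 fell on IL-4 (20.7% and 18.7% of all genes), and 2 rose and 2 fell on IL-13 (12.1% and 13.5%). *Socs1*, a known STAT6 target, had 1.02 CPM in control, 36.7 CPM in IL-4, 49.1 CPM in IL-4/IL-6, 10.3 CPM in IL-13 and 10.2 CPM in IL-13/IL-6. *Il1rl1*, which encodes the IL-33 receptor, rose with IL-4 from 1.25 to 55.4 CPM and was at 4.58 CPM after IL-6 co-addition (log2 fold change -3.60, adjusted p = 5.05e-09 by edgeR). *Tollip*, an inhibitor of IRAK kinases, rose with IL-6 by 0.79 on IL-4 and 0.40 on IL-13, and *Tnip1*, a partner of the deubiquitinase A20, fell by 0.89 and 0.72. All pathway lists were chosen with earlier results of these data known, and their counts are descriptions.

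Across the 15 libraries, the gene with the level pattern most like *Tlr2* was *Tmem38b* (Pearson r of log2 CPM 0.993), followed by *Smpdl3a* (0.991) and *Mpeg1* (0.990). For *Tlr9* these were *Kctd20* (0.993), *Laptm5* (0.988) and *Atg13* (0.983), and for *Tlr13* *Lyn* (0.984), *Ugt1a7c* (0.984) and *Ifitm6* (0.982). *Tlr4* was most like *Mon2* (0.979), *Tlr7* like *Ago3* (0.985), *Tlr8* like *Wdr48* (0.973), *Tlr6* like *Pnpla8* (0.967), *Tlr1* like *Cacna1d* (0.945) and *Tlr3* like *Lilr4b* (0.914). The points are 5 groups of 3 libraries, so that these values mostly compare group means.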

How the data were processed

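RNA of BMDMs was sequenced in 15 libraries. The deposited count matrix holds the authors' raw counts per Ensembl gene, and the deposited FPKM values are the authors' counts scaled by gene length and library total, which was checked to within a relative difference of 7.35e-07 (268061 values), and the 27385 genes without FPKM had 0 counts. The submitters' processing notes name CASAVA, Bowtie2 (2.2.3), TopHat2, HISAT2 (2.1.0) and DESeq2 with GRCm38. The counter, annotation and strand setting are not given in the sources used here.

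Counts were filtered (filterByExpr, minimum count 10), scaled by TMM and tested across all groups by quasi-likelihood F tests in edgeR 4.0.16 (R 4.3.3), with Benjamini-Hochberg adjustment over 13938 genes and a threshold of 0.05. CPM values are TMM-normalized, and intervals are 95%. FPKM were used as deposited, with no test, for levels between genes and for their sums, shares and ratios by group. Tables were handled in Python 3.11.15 with pandas 2.3.3 and numpy 2.4.6. The depth of 17001352 to 18918686 counts limits precision only for genes with a few counts, and floors and intervals on counts cover counting error only. No replicates were duplicated libraries (mean chi-square per gene 2.68 to 46.6). A legend of the study calls the RNA-seq libraries of the IL-4 arms biological replicates. The labels do not say whether they came from separate animals or cultures, and p-values measure the spread between these samples.

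The 10 members were named throughout. From each pathway list the 3 called genes with the largest change in a comparison were eligible to be named. Members and lists were chosen with earlier results of these data known. Alternatives were other scaling factors, DESeq2 1.42.0, limma voom (3.58.1), other filters, fits of the compared groups alone, a replicate block and each library left out. On counts simulated for IL-4 over control (13544 genes, 50 genes changed at each size), the test called 45 at a log2 change of -2, 37 at -1, 41 at 1, 49 at 2 and 11 other genes. In the data, 4474 genes were called higher and 5002 lower in that comparison. Far fewer were changed in the simulation, so its call rates may not hold for the data. Genes were placed by GENCODE vM21. The genotype of the donor mice is not reported here.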

Additional observations from a re-analysis of the deposited data

Results flagged for a closer look

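The IL-6 effect on *Tlr13* differed between the settings. It was -1.52 on IL-4 and -0.25 on IL-13 (log2), and the difference of 1.27 passed the interaction test (adjusted p = 1.43e-07 by edgeR), with all 3 libraries lower than each library without IL-6 in both settings. The IL-6 effect on *Tlr1* was 0.19 on IL-4 and 0.98 on IL-13, with a difference of 0.79 (adjusted p = 0.000259 by edgeR). IL-4 and IL-13 were given at different doses, so that cytokine and dose cannot be told apart in these differences.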

How the results depend on the processing

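Of the single-gene values under the alternatives, 1069 kept their direction and their side of the threshold, 19 lost their call, 9 gained one and 37, all without a call, changed sign. The count of TLR genes higher with IL-4/IL-6 than in control was 2 with no filter on low counts, and 1 to 2 with a library left out (2 without IL-4/IL-6 replicate 2, *Tlr1* being added). The count of lower TLR genes in the interaction was 0 to 1 with a library left out (1 without IL-4/IL-6 replicate 2, *Tlr9*). *Tlr8* gained calls with no filter on low counts for IL-6 on IL-13 (0.24, adjusted p = 0.0328) and in the interaction (0.43, adjusted p = 0.00882). Sign changes, on the log2 scale, were as follows. *Tlr1* with IL-4 over control was 0.058 with no filter, 0.020 with only the groups compared and -0.035 to 0.044 with a library left out. *Tlr3* with IL-4 over control was 0.001 with no filter and -0.165 to 0.043 with a library left out. For IL-6 on IL-4, leaving out a library gave -0.152 to 0.079 for *Tlr3* and -0.408 to 0.034 for *Tlr8*. For IL-13 over IL-4, it gave -0.104 to 0.007 for *Tlr6*, -0.244 to 0.127 for *Tlr8* and -0.129 to 0.144 for *Tlr4*. That *Tlr4* value was -0.007 with median-of-ratios factors, -0.031 with upper-quartile factors, -0.006 with DESeq2, -0.020 with voom, -0.020 with no filter and -0.014 with only the groups compared. In the interaction, leaving out a library gave -0.260 to 0.012 for *Tlr4* and -0.117 to 0.083 for *Tlr7*, and *Tlr7* was 0.038 with upper-quartile factors, 0.011 with library totals, 0.003 with voom and 0.030 with no filter. The cause was not tested. Over all genes, IL-13 over IL-4 had 1060 higher and 719 lower genes. It had 644 to 675 and 444 to 504 without IL-4 replicate 2 or 3 or IL-13 replicate 2 or 3, 1591 and 1274 without IL-4/IL-6 replicate 2, and 1623 and 1292 without IL-13 replicate 1. With library totals, the median of all genes with IL-4/IL-6 over control went from -0.05 to -0.19 and the share of higher calls from 48.6% to 40.5%. In the interaction that share went from 57.8% to 68.3% with upper-quartile factors and 68.5% with no filter.

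Libraries of different groups with the same replicate number were no more alike than others (correlations -0.28 to 0.16, against -0.35 to 0.39). Such correlations cannot show whether they shared an animal or culture. With the replicate block, *Tlr4* in IL-13 over IL-4 was -0.008, and no call of a TLR gene changed.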
